A study of Danio rerio with 24 samples.

Results

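The step from a forming blastema to outgrowth was followed in the caudal fin of control zebrafish (Danio rerio), by setting 48 h against 24 h after amputation. The 6 arrays were chosen by the arm and time in their labels, 3 for each time, out of 24 arrays in the series. All were Affymetrix zebrafish arrays hybridised with biotin-labelled copies of total fin RNA, and their values are log2 signals per probe set. The other arrays hold control fins at 0 and 12 h and metabolic memory fins at 0, 12, 24 and 48 h. They entered the fit for the estimate of the spread, the 12 h level is given for some genes, and the memory fins serve as the comparison at the end.

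Control fish were wild-type animals kept at 28.5 °C with 14 h of light and 10 h of dark. One description in the labels calls them untreated, and another says that they were injected with citrate buffer, the solvent of the drug. The same description places the injections in the fin. Memory fish had received streptozocin, which kills the beta cells that make insulin, at 350 mg/kg in repeated injections, and were then kept for 60 days without it. The labels name 15 fins and a triplicate per time. They leave unsaid if 15 fins made up one sample or all 3, and if the 3 samples came from different fish, so the p-values may measure only technical spread between samples. Age and sex were not stated there either.

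The fin is a fold of skin held up by bony rays, with stiff collagen-like fibres, the actinotrichia, at its edge. After amputation a wound epidermis closes the stump, and mesenchymal cells beneath it gather as a blastema. In outgrowth the blastema divides and leaves behind cells that become osteoblasts and fibroblasts, which secrete new matrix. Sonic hedgehog, Bmp, Fgf, Wnt and retinoic acid signals from the epidermis and the mesenchyme are known to pattern this growth.

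Arrays of the same control group correlated at 0.989 to 0.994 and arrays of different times at 0.951 to 0.969. The first principal component of the 6 arrays held 77.9% of their variance. Array medians were 6.75 to 6.76 at 24 h and 6.77 to 6.79 at 48 h. The 18 probe sets for spiked hybridisation controls averaged 9.76 to 9.87 on the 24 h arrays and 9.64 to 9.78 on the 48 h arrays. The number of arrays limits the precision.

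Of 10140 probe sets with a signal above the filter, 1524 were higher at 48 h (15.0%) and 1609 were lower (15.9%). A call here is a Benjamini-Hochberg adjusted p under 0.05 in limma's moderated test, and each change is a log2 difference ± its standard error. Large changes lay mostly on the rising side: 483 rises and 227 falls were at least 2-fold, 131 and 23 at least 4-fold, and 19 and 1 at least 16-fold. Without replicate 1 of the 48 h fins the counts were 1154 higher and 1037 lower. The 3 arrays of one time lay beyond all 3 of the other for 49.5% of the probe sets. By gene, with 1 probe set for each of 6451 genes, 1027 rose (15.9%) and 1017 fell (15.8%), around a median change of -0.04, and these shares are the background for every list below. Among genes called with a rise of at least 2-fold, 79 of 322 had a 24 h mean under a log2 of 4, near the bottom of the scale, where the size of a fitted change, and so its rank, is less certain. In whole fins, fewer cells of a type and less RNA per cell cannot be told apart.

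The largest fitted rise was that of ifitm5, which encodes a membrane protein of osteoblasts. Its log2 signal was 2.79, 2.41 and 2.18 on the 24 h arrays, and 11.29, 11.23 and 11.30 on the 48 h arrays. The gene went from the bottom of the scale to a high signal on every array, a fitted rise of 8.81 ± 0.28 (adjusted p = 5.49e-15). Set against the filter level, a log2 of 4, in place of its lower 24 h signal, it rose at least 155-fold. At 12 h it had averaged 2.84, so its transcript was low at both earlier times. Actinodin 2, and2, a structural protein of the actinotrichia, read 4.55, 5.00 and 4.63 at 24 h and 12.27, 12.41 and 12.20 at 48 h. That rise was 7.57 ± 0.23 (190-fold, adjusted p = 4.38e-15), with no overlap of the groups. The related and1 was already at 9.08 ± 0.07 (SD, n = 3) at 24 h and reached 13.19, 13.27 and 12.98 at 48 h. It rose by 4.07 ± 0.20 (adjusted p = 3.7e-12) in this step and had averaged 3.75 at 12 h. Most of the climb of and2, from 3.15 at 12 h, fell after 24 h, whereas and1 was already well above its 12 h level by then.

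Enamelin, enam, a matrix protein of tooth enamel in mammals, had signals of 7.07, 6.05 and 7.49 at 24 h and of 13.60, 12.98 and 13.03 at 48 h. The difference of 6.34 ± 0.31 (adjusted p = 2.21e-12) followed a level of 2.86 at 12 h, so enam climbed in both intervals. The type X collagen genes, which mark hypertrophic cartilage in mammals and also bone cells in fish, stood near each other. For col10a1a the 24 h arrays read 8.54, 8.26 and 8.53 and the 48 h arrays 13.58, 13.48 and 13.37. Its paralogue col10a1b went from 8.08, 7.94 and 7.89 to 12.98, 12.59 and 12.63. They rose by 5.03 ± 0.19 and 4.76 ± 0.30 (adjusted p at most 1.5e-10), with no overlap, and both had been close to their 24 h level at 12 h (7.93 and 7.87).

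Among the other leading rises, loxa, a lysyl oxidase that cross-links collagen, rose by 4.71 ± 0.31, and pcolcea, an enhancer of procollagen processing, by 4.03 ± 0.24. The matrix protein gene tgfbi rose by 3.78 ± 0.13 and ncana, for the proteoglycan neurocan, by 3.62 ± 0.11. The 24 h mean of ncana was 2.79, and against the filter level its rise was at least 2.41. Hgd, an enzyme of tyrosine breakdown, rose by 5.59 ± 0.25, from a mean of 2.46 to one of 8.04, at least 16.5-fold against the filter level. The homocysteine methyltransferase gene bhmt rose by 5.17 ± 0.40, and by 3.55 on another of its probe sets. Augurin, ecrg4a, a precursor of secreted peptides, rose by 6.35 ± 0.24, from 5.41, 5.56 and 5.43 to 11.78, 11.86 and 11.80. The calmodulin regulator gene pcp4a was also among them, and hsd17b8, for a steroid and fatty acid dehydrogenase, rose by 4.70 ± 0.18. A further probe set of hsd17b8 changed by only 0.21 (adjusted p = 0.429), so that gene's rise rests on 1 probe set. In these 15 largest rises the 3 arrays of 48 h lay above all 3 of 24 h, as the rule for naming them asked.

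**Figure D1:**
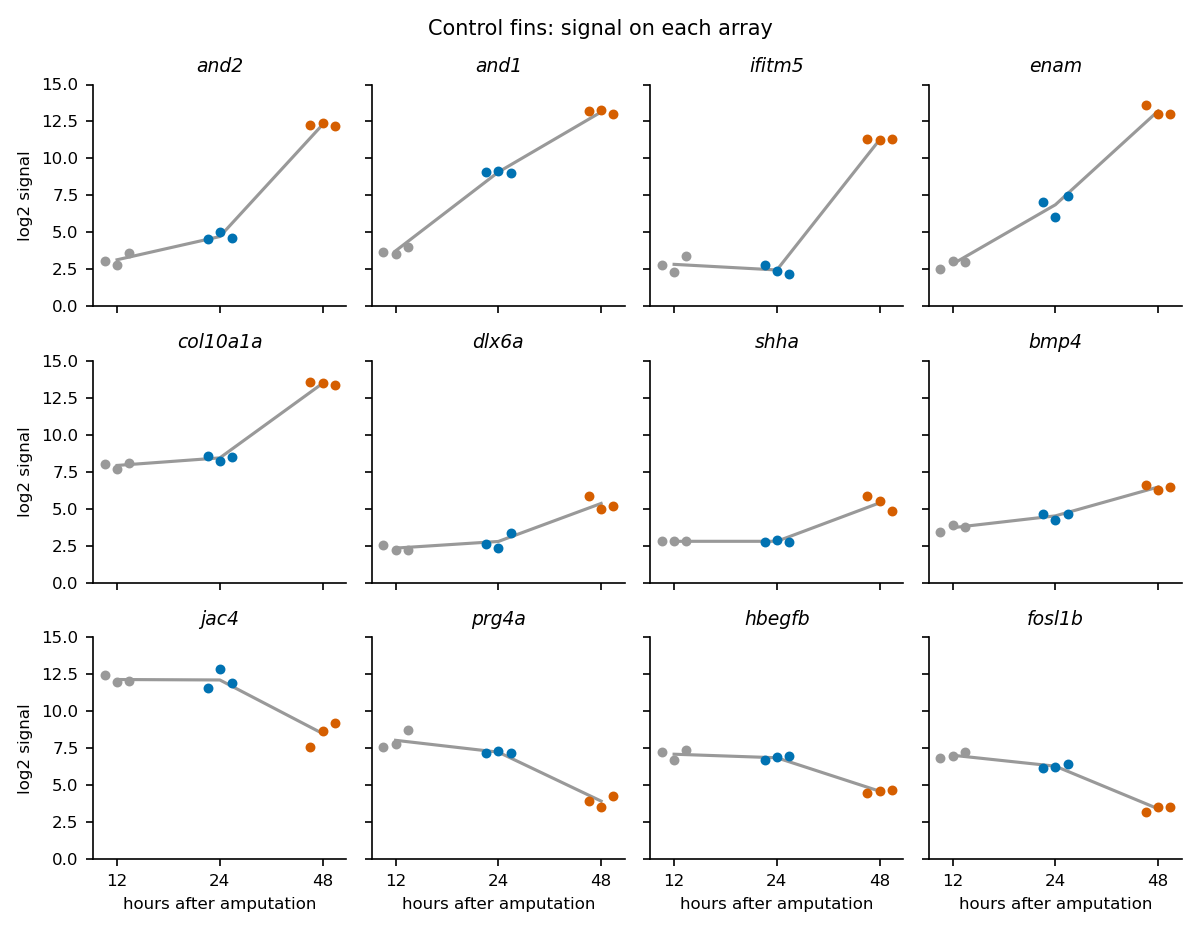
Log2 signal (y axis) of 12 genes on every control array at 12, 24 and 48 h after amputation (x axis, evenly spaced), with 1 point per array and a line through the means. The actinodins, ifitm5, enam and col10a1a end above 11 at 48 h, while shha and bmp4 rise from a low signal and jac4, prg4a, hbegfb and fosl1b fall.

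Bone and osteoblast genes mostly rose. Of 62 listed genes 34 had a probe set and 32 passed the filter, and of those 23 rose, 3 fell and 6 were not called, with a median of 1.35 against -0.04 for all genes. The probe set annotated to runx2a, an osteoblast transcription factor gene, read 6.88, 7.24 and 7.17 at 24 h and 9.50, 9.57 and 9.17 at 48 h, a rise of 2.32 ± 0.20 (adjusted p = 2.24e-08) without overlap. Its gene name is uncertain, because the platform annotation gives the same transcript record for it and for a probe set of the type I collagen gene col1a1a. The paralogue runx2b differed by -0.22 ± 0.12 (adjusted p = 0.183) at a low signal. The osteoblast factor gene sp7 stayed below the filter, at 1.82 and 1.83, so its probe set gave no measure. Of 8 homeobox genes of the Dlx family tested, which act in skeletal precursors, 6 rose, with dlx6a at 2.57 ± 0.27, dlx4a at 1.40 ± 0.21 and dlx4b at 0.94 ± 0.25. The 2 others, dlx5a and dlx3b, differed by 0.73 ± 0.41 and -0.22 ± 0.21 and were not called (adjusted p = 0.198 and 0.441). Dlx6a had a 24 h mean of 2.79, and against the filter level it rose by at least 1.36. Tenascin N, tnn, rose by 2.78 ± 0.27, the bone matrix glycoprotein sparc by 0.95 ± 0.09, periostin, postnb, by 0.58 ± 0.12 (1.38 on its other probe set) and phex, an enzyme of phosphate balance in bone, by 0.99 ± 0.29. The Wnt inhibitor sost, made by osteocytes in mammals, rose by 1.66 ± 0.32. Osteopontin, spp1, went the other way: its signals of 9.32, 9.23 and 9.40 at 24 h became 7.77, 7.99 and 7.95 at 48 h, a fall of 1.41 ± 0.16 on the log2 scale (adjusted p = 6.07e-07). Alkaline phosphatase, alpl, differed by 0.27 ± 0.18 (adjusted p = 0.266).

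Genes of bone-resorbing osteoclasts did not rise as a list, with 1 higher, 2 lower and 6 not called of 9 and a median of -0.30. Tartrate-resistant acid phosphatase, acp5a, fell from a mean of 9.69 ± 0.09 (SD, n = 3) to one of 8.42 ± 0.34, a fall of 1.27 ± 0.27 on the log2 scale (adjusted p = 0.00124). The proton pump subunit gene tcirg1b fell by 0.52 ± 0.16, and the call was lost without replicate 2 of 24 h (adjusted p = 0.0576) or replicate 3 of 48 h (adjusted p = 0.0761). The collagen-degrading protease gene ctsk rose by 0.46 ± 0.08 (adjusted p = 0.000268). The summed signal of the 4 osteoblast markers on the array was 8.37 to 8.63 at 24 h and 13.68 to 13.85 at 48 h, which ifitm5 and col10a1a carried. That of the 2 osteoclast markers was 12.12 to 12.28 and 12.44 to 12.49. It was carried by ctsk, with means of 11.92 and 12.37, while the other marker, acp5a, fell.

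Collagens of other classes rose too. Of 42 listed, 10 passed the filter, with 8 higher, 1 lower and 1 not called and a median of 1.35. The fall was that of col17a1b, an epidermal anchoring collagen, by 0.42 ± 0.10. Type XIV collagen, col14a1a, which decorates fibrils, read 2.72, 2.93 and 3.68 at 24 h and 6.09, 6.09 and 6.04 at 48 h. It rose by 2.97 ± 0.21, and the type XI genes col11a1a and col11a2 rose by 2.61 ± 0.17 and 2.02 ± 0.23. Col11a2 had a 24 h mean of 2.72, and its rise against the filter level was at least 0.74. The type I genes col1a1a and col1a2, with means of 12.49 and 12.26 already at 24 h, rose by 1.38 ± 0.11 and 1.31 ± 0.15, and col6a3 by 1.90 ± 0.14 (each adjusted p at most 9.38e-07). Cartilage and sulphated matrix genes gave 6 higher, 1 lower and 3 not called of 10, and 9 others were too dim to test. Decorin, dcn, rose by 2.19 ± 0.13 and matrilin 4, matn4, by 1.99 ± 0.15. Matn4 started from a mean of 3.02 and rose by at least 1.01 against the filter level. The link protein gene hapln1a, which ties hyaluronan to proteoglycans and sits with the actinodins on the fin fold list, rose by 1.54 ± 0.19, though 1 of its 4 probe sets was not called (0.29, adjusted p = 0.123). All 3 measured members of that list rose. The 1 fall in the cartilage list was that of prg4a, lubricin, described with the largest falls.

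Genes for folding and modifying collagen in the endoplasmic reticulum were among the rises. In the list of protein folding and secretion, 50 genes rose, 2 fell (1 to 3 with 1 array left out) and 56 were not called of 108, with a median of 0.31. The largest rises included plod1a, a lysyl hydroxylase (2.04 ± 0.14), the prolyl isomerases fkbp14 (1.83 ± 0.15) and fkbp10b (1.78 ± 0.10), and p4ha1b, a prolyl hydroxylase subunit (1.53 ± 0.22). The collagen chaperone gene serpinh1b read 12.91, 12.34 and 12.00 at 24 h and 14.57, 14.21 and 13.96 at 48 h. It rose by 1.83 ± 0.37 (adjusted p = 0.000749) without overlap, although its arrays spread more widely within each time than those of fkbp10b, which read 9.03, 8.88 and 9.04 and then 10.74, 10.76 and 10.79. The 12 h mean of serpinh1b, 13.51, lay between the means of the later times, 12.41 and 14.24. The small heat shock protein gene hspb8 rose by 1.99 ± 0.16. Enzymes that remodel matrix gave 10 higher, 1 lower and 17 not called of 28. The transglutaminase gene tgm2b rose by 3.18 ± 0.17, from 2.89, 2.91 and 2.89 to 5.67, 6.18 and 6.36. The gelatinase gene mmp2 rose by 1.82 ± 0.13, loxl2b by 1.16 ± 0.11 and the hyaluronan synthase gene has2 by 1.01 ± 0.24, while mmp9 differed by -0.25 ± 0.13 (adjusted p = 0.145). Against the filter level the rise of has2, from a mean of 3.69, was at least 0.70.

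Glycoproteins of the wound matrix, laminins and integrins moved both ways, with 15 higher, 9 lower and 7 not called of 31. Thrombospondins thbs3a and thbs4b, secreted by connective tissue, rose by 2.84 ± 0.24 and 2.47 ± 0.17. The laminin gene lama5, of the basement membrane, rose by 1.27 ± 0.27. The fibronectin genes, which serve as a scaffold for migrating cells, fell: fn1a went from 11.41, 11.44 and 11.38 to 10.58, 10.59 and 10.50, and fn1b from 13.97, 13.90 and 13.73 to 12.80, 12.87 and 12.96. These falls were 0.85 ± 0.09 and 0.99 ± 0.14 on the log2 scale (adjusted p at most 1.01e-05). Each pair of groups stood apart, though 1 of the 3 probe sets of fn1a was not called (-0.42, adjusted p = 0.0721).

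**Figure D2:**
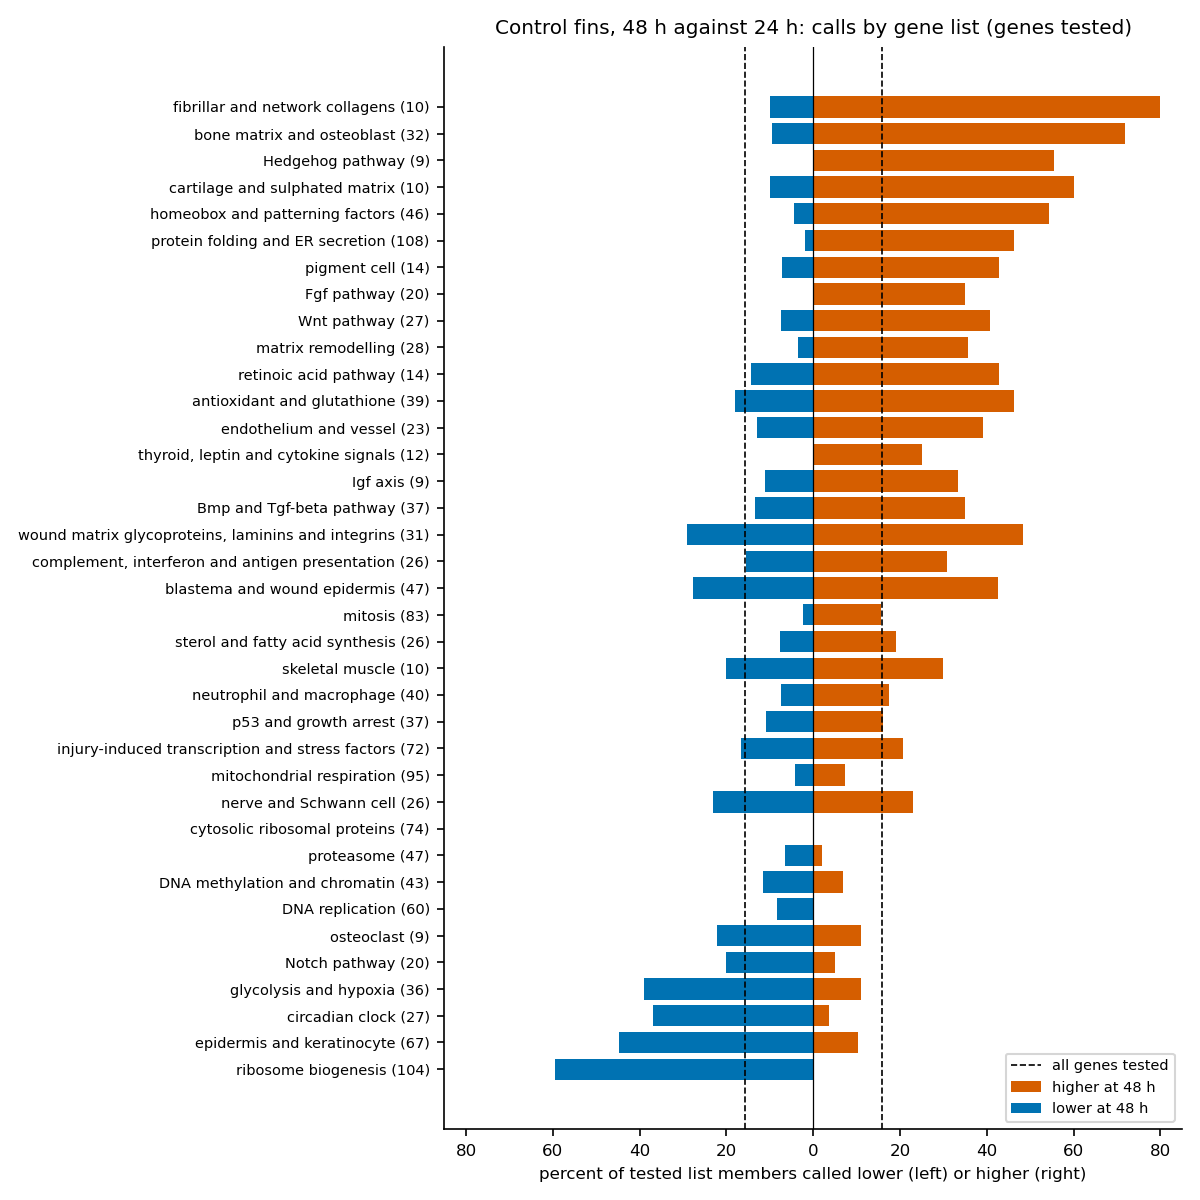
Percent of tested members called lower (left, blue) or higher (right, orange) at 48 h than at 24 h in control fins, for gene lists with at least 9 genes tested (number in brackets). Dashed lines mark the shares over all genes, 15.8% lower and 15.9% higher. Among the lists drawn, collagen and bone reach farthest to the right, and ribosome biogenesis and epidermis farthest to the left.

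The hedgehog genes that were called all rose. Sonic hedgehog, shha, the ligand made by the epidermis next to the rays, read 2.77, 2.89 and 2.73 at 24 h and 5.84, 5.50 and 4.86 at 48 h. It rose by 2.60 ± 0.23 (adjusted p = 1.67e-08) from a level it also had at 12 h (2.80). That level lies below the filter level, against which shha rose by at least 1.40. Hhip, a decoy receptor induced by the pathway, rose by 2.00 ± 0.15, from 4.13, 3.73 and 4.03 to 6.02, 6.16 and 5.70. Among the intracellular and membrane parts, gli3 rose by 0.74 ± 0.16, and the co-receptors cdon and boc by 0.55 ± 0.15 and 1.23 ± 0.32. The call of boc was lost without replicate 1 of 48 h (adjusted p = 0.0575). Of 9 tested members 5 rose and none fell in limma's test, also none at an unadjusted p under 0.05, and 4 were not called, such as gli2a (0.18 ± 0.17) and sufu (0.14 ± 0.12). Another 6 members on the array were below the filter. Members dim at 24 h, such as shha, could enter the test through their 48 h arrays. That favours rises, so the lack of falls is no separate support.

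Members of the Bmp and Tgf-beta family moved both ways, more of them upward. Of 37 members tested, 13 rose, 5 fell and 19 were not called, with a median of 0.26, and 3 were lower when either replicate 1 or replicate 2 of 24 h was left out. The ligand gene bmp4 read 4.68, 4.22 and 4.65 at 24 h and 6.63, 6.29 and 6.49 at 48 h, a rise of 1.96 ± 0.15 (adjusted p = 2.81e-09). Further ligands rose, with bmp8a at 2.06 ± 0.16, gdf6a at 1.43 ± 0.26 and bmp3 at 0.90 ± 0.21. Of the 3 probe sets of bmp8a, 1 changed by -0.19 (adjusted p = 0.526). The ligands bmp2a and bmp2b differed by 0.47 ± 0.21 and 0.15 ± 0.12 and were not called, though bmp2a passed without replicate 3 of 48 h (adjusted p = 0.0165). Activin subunits parted: inhbaa fell by 1.86 ± 0.16 on the log2 scale, from 10.83, 10.63 and 10.31 to 8.51, 8.83 and 8.85, and inhbb rose by 1.82 ± 0.20, from 6.64, 6.27 and 6.56 to 8.48, 8.27 and 8.17. Tgf-beta 1, tgfb1a, fell by 0.66 ± 0.12, and smad3a, a transducer of activin and Tgf-beta signals, by 1.60 ± 0.27. Target genes that encode inhibitors of differentiation rose, with id2b at 2.85 ± 0.34 and id3 at 1.13 ± 0.27. The follistatin-like gene fstl1b rose by 1.39 ± 0.19.

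In the Wnt list 11 genes rose, 2 fell and 14 were not called of 27, and 18 more were too dim. The 2 falls were 1 without replicate 2 or 3 of 24 h or replicate 1 or 3 of 48 h. Notum, notum1b, an enzyme that inactivates Wnt ligands, rose most, from 3.31, 3.99 and 4.14 to 6.77, 7.06 and 6.79 (3.06 ± 0.30, adjusted p = 8.73e-08). The ligand gene wnt11 rose by 1.71 ± 0.18, from the bottom of the scale. Receptors parted, with fzd7a at 2.03 ± 0.17 and fzd9b at 1.59 ± 0.14 against fzd10, which fell by 1.27 ± 0.19 from 10.07, 9.97 and 10.13 to 9.07, 8.49 and 8.80. Secreted modulators sfrp1a and dkk3b rose by 1.01 ± 0.22 and 0.87 ± 0.11, and the nuclear effector lef1 by 0.87 ± 0.19. Other pathway genes were not called, with axin2 at 0.1, axin1 at 0.36 ± 0.24 (adjusted p = 0.287), ctnnb1 at -0.03 ± 0.11 and wls at 0.00 ± 0.11.

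Fgf genes gave 7 rises, no fall in limma's test (1 at an unadjusted p under 0.05) and 13 not called of 20, with 4 rises when replicate 3 of 24 h was left out. The binding protein gene fgfbp2a rose by 1.97 ± 0.41, the receptor gene fgfr2 by 0.70 ± 0.17 (0.66 and not called on its other probe set, adjusted p = 0.0864) and the ligand gene fgf24 by 0.84 ± 0.18 at a low signal. Il17rd, a feedback inhibitor of Fgf signalling, rose by 0.85 ± 0.19. Other feedback and target genes were not called, with dusp6 at 0.19 ± 0.13 (adjusted p = 0.287) and etv4 at -0.24 ± 0.11 (adjusted p = 0.106), and the blastema ligand fgf10a differed by -0.14 ± 0.25.

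Of 14 retinoic acid genes tested, 6 rose, 2 fell and 6 were not called. The synthesis enzyme gene aldh1a2 fell by 0.88 ± 0.14 on the log2 scale, from 8.93, 9.29 and 9.22 to 8.22, 8.52 and 8.08 (adjusted p = 7.25e-05), after a mean of 7.36 at 12 h. The degrading enzyme gene cyp26b1 rose by 0.81 ± 0.18, although 2 of its 4 probe sets were not called. The reductase gene dhrs3a, which turns retinal back to retinol, rose by 1.72 ± 0.18, and the carotenoid-cleaving enzyme genes bco2l and bco1 by 1.69 ± 0.19 and 1.12 ± 0.23. From a 24 h mean of 2.91, dhrs3a rose by at least 0.63 against the filter level. The retinoic acid binding protein gene crabp2b fell by 0.46 ± 0.11.

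The Notch list gave 1 higher, 4 lower and 15 not called of 20, with 25% called against 31.7% of all genes. The hairy-related gene her9 and the Notch target gene nrarpa fell by 1.45 ± 0.24 and 0.92 ± 0.22 on the log2 scale, and the receptor gene notch3 by 0.71 ± 0.20. Her6 rose by 0.89 ± 0.26, a call lost without replicate 1 of 48 h (adjusted p = 0.074). Of the insulin-like growth factor axis, 3 of 9 rose and 1 fell. The ligand genes igf2a and igf2b rose by 1.05 ± 0.25 and 0.58 ± 0.13, and the binding protein gene igfbp5b fell by 0.33 ± 0.08. In a list of thyroid, leptin and cytokine signals, 3 of 12 rose and none fell in limma's test (2 at an unadjusted p under 0.05), with hsd11b2, which inactivates cortisol, at 2.35 ± 0.28, from 7.75, 7.67 and 6.89 to 9.10, 10.09 and 10.17.

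Ligands of the EGF receptor family and their feedback stood out on the falling side, with 4 of 6 tested lower and none higher in limma's test, also none at an unadjusted p under 0.05. Hbegfb, a heparin-binding ligand, read 6.73, 6.87 and 6.95 at 24 h and 4.44, 4.62 and 4.70 at 48 h, a fall of 2.26 ± 0.18 on the log2 scale (adjusted p = 6.34e-09). Its paralogue hbegfa fell by 0.93 ± 0.21 and the feedback inhibitor errfi1a by 1.61 ± 0.26. Errfi1a ended at a mean of 3.54, and against the filter level it fell by at least 1.15. Neuregulin, nrg1, was at 6.04, 7.45 and 7.74 at 24 h and at 4.58, 5.08 and 6.11 at 48 h, so its groups overlapped. Its fall of 1.82 ± 0.49 (adjusted p = 0.00779) was not called without replicate 3 of 24 h (adjusted p = 0.051) or replicate 1 of 48 h (adjusted p = 0.0547).

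Genes that mark the blastema and wound epidermis moved both ways. Of 47 tested, 20 rose, 13 fell and 14 were not called. Mesenchymal transcription factors rose, with twist3 at 2.47 ± 0.16 (from 5.61, 5.62 and 5.18 to 8.03, 8.19 and 7.61), msx2a at 1.62 ± 0.20, msx2b at 1.58 ± 0.30, msx3 at 1.26 ± 0.33, msx1b at 1.04 ± 0.18 and prrx1b at 1.03 ± 0.19. The heparin-binding growth factor genes mdkb and mdka rose by 2.14 ± 0.32 and 0.28 ± 0.08, the latter not without replicate 2 of 24 h (adjusted p = 0.0775) or replicate 1 of 48 h (adjusted p = 0.0879). Mdkb had a 24 h mean of 3.02, and against the filter level its rise was at least 1.16. Chemokine cxcl12a rose by 2.98 ± 0.18, from 4.68, 5.03 and 5.19 to 7.91, 8.07 and 7.87. Its paralogue cxcl12b fell by 1.78 ± 0.18, from 5.73, 5.17 and 5.66 to 3.77, 3.75 and 3.69. Among the falls were tph1b, of serotonin synthesis, by 1.19 ± 0.15, the vault protein gene mvp by 0.78 ± 0.14, the galectin gene lgals3b by 0.57 ± 0.11 and the chaperonin gene hspd1 by 0.40 ± 0.09. The summed signal of 5 mesenchyme and blastema markers was 11.17 to 11.27 at 24 h and 13.84 to 14.08 at 48 h, a rise carried by and1 and and2. Of the other markers in it msx1b rose, aldh1a2 fell by 0.88 ± 0.14 and the fifth was not called. Homeobox and other patterning factors gave 25 higher, 2 lower (1 without replicate 1 of 24 h) and 19 not called of 46, with a median of 0.72, while 64 more on the array were below the filter. The Hox genes hoxa9b and hoxa10b, of posterior position along the body and fin, rose by 1.83 ± 0.18 and 1.80 ± 0.19.

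The largest falls were fewer and of mixed function. Arhgap32a read 6.34, 7.10 and 6.88 at 24 h and 2.64, 2.80 and 2.66 at 48 h. It fell by 4.08 ± 0.20 on the log2 scale as fitted (adjusted p = 2.4e-12) to the bottom of the scale, and at least 6.85-fold against the filter level. The lectin-like gene jac4 went from 11.56, 12.84 and 11.92 to 7.61, 8.65 and 9.20, a fall of 3.62 ± 0.36 from a level it had also held at 12 h (12.14). Lubricin, prg4a, a lubricating proteoglycan of joints in mammals, fell by 3.32 ± 0.25, from 7.20, 7.30 and 7.20 to 3.95, 3.54 and 4.26. No 48 h array of these 3 genes reached a 24 h array, as the rule for naming the largest falls asked.

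The AP-1 gene fosl1b read 6.19, 6.24 and 6.40 at 24 h and 3.19, 3.50 and 3.49 at 48 h, a fall of 2.88 ± 0.15 (adjusted p = 4.01e-12). Further leading falls were those of ntrnl2 (3.09 ± 0.36), rasgrp4, an activator of Ras (2.67 ± 0.35), the cadherin gene cdh17 (2.57 ± 0.18) and the calcium-binding protein gene s100z (2.44 ± 0.26). Cdh17 ended at a mean of 3.02, and its fall against the filter level was at least 1.59. The chromatin protein gene hmgb3a fell by 2.53 ± 0.40. It had averaged 3.29 at 12 h, 6.30 at 24 h and 3.77 at 48 h, so its high level was seen at 24 h alone among these times. The gene arhgap29a fell by 2.12 ± 0.28, the connective tissue growth factor gene ccn2b by 2.02 ± 0.28, scg2a, of secretory granules, by 2.02 ± 0.34 and the connexin gene gjc4a.1 by 1.98 ± 0.15. Ccn2b ended at a mean of 3.04, below the filter level, and against that level its fall was at least 1.06. Its paralogue ccn2a was called higher, at 0.86. Ddc, the decarboxylase of serotonin and dopamine synthesis, fell by 2.22 ± 0.18. The 48 h mean of ddc was 3.49, and its fall against the filter level was at least 1.71.

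Epidermal genes fell more often than they rose, with 30 lower, 7 higher and 30 not called of 67 and a median of -0.24. The keratin genes krt4, of the outer layer, and krt93 fell by 0.80 ± 0.08 and 1.80 ± 0.26. Tp63, the transcription factor of basal keratinocytes, went from 10.77, 11.11 and 11.11 to 9.93, 10.20 and 10.22, a fall of 0.88 ± 0.13 (adjusted p = 2.55e-05). The adhesion genes itga6b and dsc2l fell by 1.39 ± 0.25 and 1.19 ± 0.16, and epcam by 0.35 ± 0.09. Krt1-19e went against the list and rose by 2.02 ± 0.21, from 5.67, 5.53 and 5.85 to 7.83, 7.40 and 7.87. The summed signal of 6 keratinocyte markers was 15.82 to 15.87 at 24 h and 15.33 to 15.45 at 48 h, and its part in these falls was not tested.

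Genes for assembling ribosomes fell, while genes for the ribosomal proteins were not called. Of 104 ribosome biogenesis genes tested, 62 fell, none rose in limma's test, also none at an unadjusted p under 0.05, and 42 were not called. Their median was -0.39, and 40 fell when replicate 1 of 48 h was left out. The nucleolar protein gene lyar read 6.47, 6.45 and 6.52 at 24 h and 5.50, 5.26 and 5.47 at 48 h, a fall of 1.07 ± 0.13 (adjusted p = 1.3e-06). Assembly factor genes of the small subunit fell by similar amounts, with tsr2 at -0.86 ± 0.14, pwp2h at -0.84 ± 0.19, mphosph10 at -0.81 ± 0.14 and utp15 at -0.81 ± 0.15. None of the 74 genes for cytosolic ribosomal proteins was called in limma's test at this threshold, 1 was lower at an unadjusted p under 0.05, and their median was 0.02. Their median signal at 24 h was 13.95, where the highest value on the 6 arrays was 15.50, and whether signals so high can show a change was not tested.

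Cell cycle genes were called less often than all genes, at 8.33% for DNA replication and 18.1% for mitosis against 31.7%. The share of mitosis genes called higher, 15.7%, was near that of all genes, 15.9%. Their share called lower, 2.41%, was below the 15.8% of all genes. Of 60 DNA replication genes, 5 fell and 55 were not called, none rose in limma's test (3 at an unadjusted p under 0.05), with a median of -0.08, and the 5 were 1 to 3 when any array but replicate 3 of 48 h was left out. Of 83 mitosis genes, 13 rose, 2 fell and 68 were not called, with a median of 0.20. The 13 were 5 to 8 with any 1 array left out and 21 in a fit on only the groups compared, so the size of that count depends on the arrays and the fit. Cdca7a rose by 0.94 ± 0.23, the spindle gene nusap1 by 0.62 ± 0.15 (1 of its 3 probe sets at 0.48 was not called, adjusted p = 0.0561) and zw10, of the kinetochore, by 0.60 ± 0.15. Stathmin, stmn1b, which takes microtubules apart, fell by 1.85 ± 0.18, from 9.50, 9.30 and 9.07 to 7.52, 7.31 and 7.48. In a list of p53 targets and growth arrest genes, 6 rose (16.2%), 4 fell (10.8%) and 27 were not called of 37. These shares were near or below those of all genes, 15.9% and 15.8%, and 2 fell without replicate 1 of 48 h. The cell cycle inhibitor gene cdkn1ca rose by 2.22 ± 0.19, from 3.03, 3.02 and 2.88 to 5.32, 4.84 and 5.41, and mdm2, which targets p53 for degradation, fell by 1.22 ± 0.23. Of 43 genes of DNA methylation and chromatin, 3 rose and 5 fell, with 2 to 5 of each when 1 array was left out. The methyl-CpG binding protein genes mbd3b and mbd2 moved by 1.53 ± 0.19 and -1.37 ± 0.17.

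**Figure D3:**
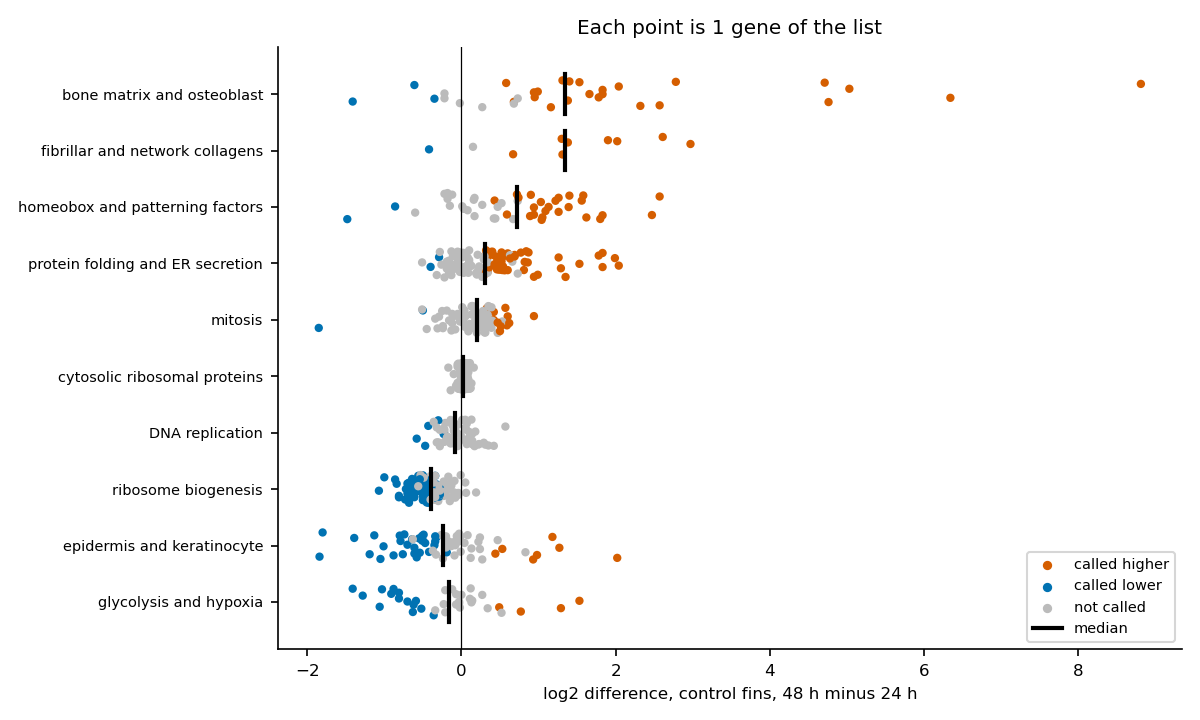
Log2 difference between 48 and 24 h in control fins (x axis) of every tested gene in 10 lists, with 1 point per gene, coloured by its call, and a black bar at the median (points are spread vertically for view). Bone matrix genes reach 8.81, the ribosome biogenesis genes lie mostly left of 0 around -0.39, and the cytosolic ribosomal protein genes lie close to 0.

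Of 36 glycolysis and hypoxia genes 14 fell, 4 rose and 18 were not called, with a median of -0.17. Enolase, eno1a, went from 9.49, 9.32 and 9.40 to 8.46, 8.28 and 8.29 and pyruvate kinase, pkma, from 10.96, 11.41 and 11.43 to 9.91, 10.23 and 10.56. They fell by 1.06 ± 0.09 and 1.03 ± 0.14 on the log2 scale, the lactate transporter gene slc16a3b by 1.41 ± 0.30 and ndrg1a by 1.28 ± 0.17. Among the 4 rises were the prolyl hydroxylase subunits p4ha1b and p4ha2 (1.29 ± 0.23), which act on collagen. Of 95 mitochondrial respiration genes 84 were not called, while cox4i2, a subunit form of cytochrome oxidase induced by low oxygen in mammals, rose by 3.18 ± 0.14, from 4.39, 4.62 and 4.95 to 7.89, 7.82 and 7.79. Antioxidant and glutathione genes gave 18 higher, 7 lower and 14 not called of 39. The lower count was 3 without replicate 2 of 24 h or replicate 1 of 48 h. The peroxidase genes gpx4a and gpx8 rose by 2.12 ± 0.30 and 1.23 ± 0.16, the glutathione transferase genes gstt1b and gstm.1 by 1.32 ± 0.16 and 1.13 ± 0.12, and prdx4 by 0.97 ± 0.12. Proteasome genes had 43 of 47 not called, and sterol and fatty acid genes 19 of 26, with fads2, a desaturase, at 1.62 ± 0.32 from the bottom of the scale.

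Lists named for other cell types of the fin were also read, and not every member is a marker of its cell type. Endothelial and vessel genes gave 9 higher, 3 lower and 11 not called of 23: pdgfaa, a growth factor for mesenchymal cells, rose by 2.25 ± 0.17, and the neuropilin gene nrp1a fell by 1.52 ± 0.19. The vessel marker kdrl differed by 0.06 ± 0.10 (adjusted p = 0.72), while the marker fli1 rose by 0.57 ± 0.15 (adjusted p = 0.0053). The summed signal of 3 endothelial markers was 7.51 to 7.65 at 24 h and 7.77 to 7.83 at 48 h. Nerve and Schwann cell genes gave 6 higher, 6 lower and 14 not called of 26. The axon guidance gene sema3d rose by 3.40 ± 0.12, from 3.55, 3.41 and 3.33 to 6.87, 7.10 and 6.51. Gap43, of growing axons, fell by 1.78 ± 0.23, from 5.42, 5.68 and 5.25 to 3.47, 3.61 and 3.93, and the myelin gene cldnk by 1.48 ± 0.26. The summed signal of 3 Schwann cell and axon markers was 5.90 to 6.18 at 24 h and 4.91 to 5.08 at 48 h, and its part in these results was not tested. Of these markers only gap43 was called. The others, mbpa (-0.41 ± 0.19, adjusted p = 0.108) and sox10 (0.07 ± 0.14, adjusted p = 0.762), lay under a log2 of 4 at both times. Pigment cell genes gave 6 higher and 1 lower of 14, and none lower with any 1 array left out, with gch2, of pteridine synthesis, at 1.19 ± 0.24. The melanophore markers dct and tyr stayed at 2.08 or less.

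Neutrophil and macrophage genes gave 7 higher (17.5%), 3 lower (7.50%) and 30 not called of 40. Over all genes 15.9% were higher and 15.8% lower. Without replicate 2 of 24 h, replicate 1 of 48 h or replicate 2 of 48 h, 4 were higher. The neutrophil marker mpx lay near the bottom of the scale at both times, at 3.25 and 3.18. The chemokine genes ccl25b and ccl34b.1 rose by 1.56 ± 0.26 and 0.88 ± 0.21. Of 26 complement, interferon and antigen presentation genes, 8 rose, 4 fell and 14 were not called, with 4 higher without replicate 1 of 48 h. Complement factor D, cfd, rose by 2.73 ± 0.43. The interferon-induced gene isg15 had a mean of 6.52 ± 0.42 (SD, n = 3) at 24 h and read 10.60, 8.27 and 7.74 at 48 h, and its rise of 2.35 ± 0.49 (adjusted p = 0.00103) was carried most by replicate 1. Lists of skeletal muscle, blood and lymphocyte genes were mostly below the filter, with 50, 19 and 5 dim genes and 10, 5 and 3 tested. Skeletal muscle genes gave 3 higher, 2 lower (0 to 1 with any 1 array left out) and 5 not called, with a median of 0.00. Blood genes gave 1 higher and 4 not called, and lymphocyte genes 1 higher and 2 not called. Among these rises myoglobin, mb, rose by 2.12 ± 0.23 and f13a1b, a coagulation factor subunit, by 0.92 ± 0.21. The gene trac, of the T cell receptor, rose by 0.85 ± 0.19, from a mean of 3.89, below the filter level, to one of 4.74. The muscle marker ckma stayed at 2.21 and 2.27.

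Of 27 clock genes 10 fell, 1 rose and 16 were not called. With any 1 array left out, 7 to 10 fell and 0 to 2 rose. The period gene per2 went from 9.94, 10.61 and 10.60 to 9.07, 9.38 and 9.62, a fall of 1.02 ± 0.28 (adjusted p = 0.00836). Cryptochromes cry1b and cry2 fell by 0.79 ± 0.22 and 0.75 ± 0.19, the kinase gene csnk1e by 1.17 ± 0.19 and aanat2, of melatonin synthesis, by 1.38 ± 0.34. Against the filter level the falls of cry1b and aanat2 were at least 0.59 and 0.97. The call of aanat2 was lost in a fit on only the groups compared (adjusted p = 0.0641). The labels state no time of day for amputation or collection.

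Among stress and injury-induced transcription factors the number of calls changed with the arrays kept. Of 72 tested, 15 rose (20.8%), 12 fell (16.7%) and 45 were not called, against 15.9% and 15.8% of all genes. The 15 were 6 without replicate 2 of 24 h, 7 without replicate 3 of 24 h, 5 without replicate 1 of 48 h and 8 without replicate 2 of 48 h. The AP-1 repressor gene jdp2b read 10.23, 8.78 and 7.80 at 24 h and 12.37, 11.38 and 9.99 at 48 h. Its groups overlapped, and its rise of 2.31 ± 0.74 (adjusted p = 0.0221) was not called without replicate 2 or 3 of 24 h or replicate 1 or 2 of 48 h (adjusted p = 0.0642, 0.124, 0.13 and 0.0589), where it was 2.24, 1.74, 1.75 and 2.25. It was also lost in a fit on only the groups compared (adjusted p = 0.0536). The stress factor gene atf3 read 7.03, 6.17 and 5.75 and then 8.92, 7.92 and 6.68, again with overlap. Its rise of 1.52 ± 0.53 (adjusted p = 0.0329) was not called without those same arrays (adjusted p = 0.091, 0.136, 0.211 and 0.0786), where it was 1.45, 1.24, 0.98 and 1.48. With all arrays of both groups kept, 5 other settings also lost it, with adjusted p from 0.0502 to 0.0816. Opposite to these, keap1a, the sensor that holds back the antioxidant response, fell by 1.33 ± 0.41 and klf17, of epidermis, by 1.84 ± 0.68 (adjusted p = 0.0175 and 0.0463). Both were lowest on replicate 1 of 48 h, at 7.02 and 3.55, and were not called without it (adjusted p = 0.148 and 0.255). Both also lost the call without replicate 2 of 24 h (adjusted p = 0.0655 and 0.143) or replicate 3 of 24 h (adjusted p = 0.0501 and 0.124), and klf17 without replicate 2 of 48 h (adjusted p = 0.0713). Without replicate 1 of 48 h they differed by -0.81 and -1.20. With all arrays of both groups kept, keap1a lost its call in a fit on only the groups compared (adjusted p = 0.0585) and klf17 under 4 settings, with adjusted p from 0.0721 to 0.0805. At both times jdp2b and atf3 were highest on replicate 1 and lowest on replicate 3, so part of their spread followed the replicate number. In limma's test with that number as a block, jdp2b, atf3, keap1a and klf17 stayed called (adjusted p = 0.0132, 0.0207, 0.0106 and 0.0229).

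**Figure D4:**
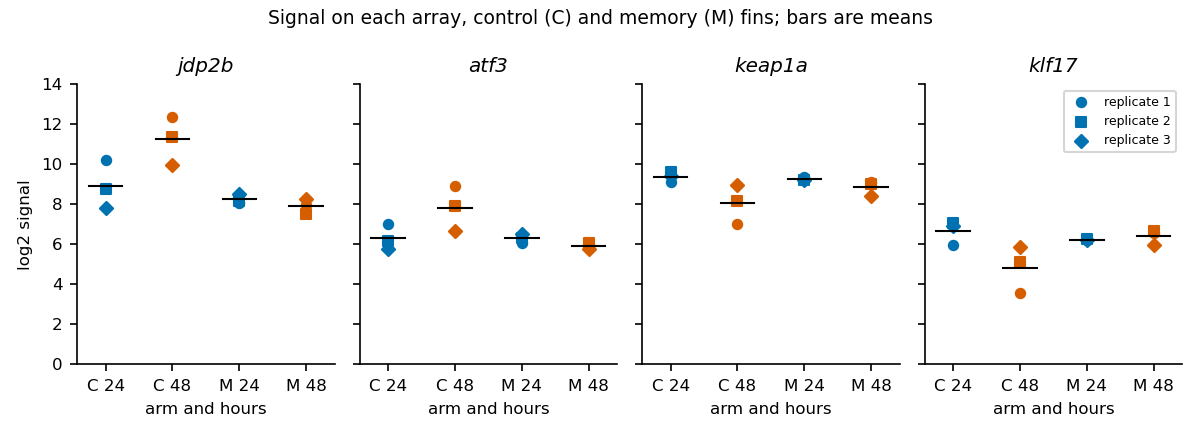
Log2 signal (y axis) of jdp2b, atf3, keap1a and klf17 on each array of control (C) and memory (M) fins at 24 and 48 h, with the replicate number as the marker shape and the mean as a bar. In control fins at 48 h, replicate 1 is the highest array for jdp2b and atf3 and the lowest for keap1a and klf17.

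The same step was read in memory fins, which share no arrays with the control fins. There 1456 probe sets were higher (14.4%) and 1327 lower (13.1%). Across the 10140 probe sets the steps of the arms correlated at Pearson's r = 0.872 and Spearman's rho = 0.757, as a description, since probe sets are not independent and share the array design and the normalisation. Of the 322 genes that rose at least 2-fold in control fins, 292 (90.7%) were also called higher in memory fins. Of the 137 that fell at least 2-fold, 104 (75.9%) were called lower there. The 15 largest rises, chosen by the control step, were all called higher in memory fins, at 3.03 to 7.55, and 12 of them were smaller there. And2 rose by 7.39 ± 0.23 and ifitm5 by 7.55 ± 0.28, while enam rose by 5.22 ± 0.31 against 6.34 and bhmt by 4.17 ± 0.40 against 5.17. Of the 15 largest falls 13 were called lower in memory fins, and 14 were smaller there. Choosing genes by the size of the control step favours smaller steps in the other arm. These counts of smaller steps are therefore no test of a difference between the arms.

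The difference between the arms' steps was itself tested, and 4 probe sets were called (0.0394%), 2 in each direction (0.0197% each), while 764 (7.53%) had an unadjusted p under 0.05. Arhgap32a fell less in memory fins, by 2.08 ± 0.20, with a step difference of 2.00 ± 0.28 (adjusted p = 0.00349). Its control signal ended below the filter level, and against that level its control fall was at least 2.78. Fosl1b also fell less there, by 1.60 ± 0.15, with a difference of 1.28 ± 0.21 (adjusted p = 0.0143), and its control fall against the filter level was at least 2.28. A probe set of cry5, of the cryptochrome and photolyase family, rose by 0.71 ± 0.21 in control fins. In memory fins it fell by 1.51 ± 0.21, a difference of -2.22 ± 0.29 (adjusted p = 0.00287). The control means of this probe set, 3.66 at 24 h and 4.36 at 48 h, lay near the bottom of the scale. The other probe set of cry5 gave -2.20 ± 0.47 (adjusted p = 0.102). Its control rise of 0.93 ± 0.33 (adjusted p = 0.0397) lost the call in several settings, such as with no filter (adjusted p = 0.0679). The fourth probe set carries no gene name. Ribosome biogenesis genes gave 25 lower and none higher in memory fins, with a median of -0.25, but no member had a called step difference. Of the stress genes with wide spread, jdp2b had a step of -0.35 ± 0.74 in memory fins and a difference of -2.66 ± 1.05 that was not called (adjusted p = 0.545).

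**Figure D5:**
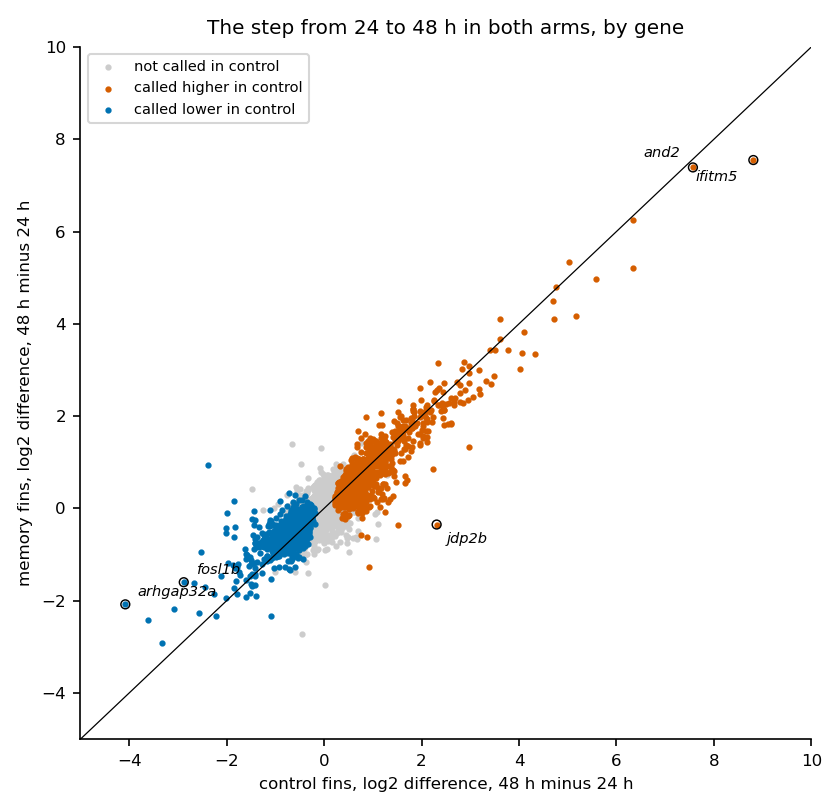
Log2 difference between 48 and 24 h in control fins (x axis) against the same difference in memory fins (y axis) for 6451 genes, with 1 point per gene, coloured by its call in control fins, and the line of equal change. Most genes called in control fins lie near the line, while arhgap32a and fosl1b lie above it and jdp2b lies below it.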

How the data were processed

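Total RNA from caudal fins, 6 ug per the labels, was labelled with biotin and hybridised to Affymetrix arrays. The authors deposited 1 log2 signal for each probe set and array. The submitters' processing notes name GCRMA and Partek, with versions not given in the sources used here. GCRMA corrects background, normalises between arrays and summarises probes. From 15617 probe sets 115 controls of the array were removed, and those with a log2 of at least 4 on at least 3 of 24 arrays were tested (10140, with 5362 left out). A gene measured only through its high group had to differ to pass.

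The platform annotation, updated by gene number, gave 1 symbol to 7594 tested probe sets, several to 62 and none to 2484. Each of 6451 genes is represented by its probe set with the highest mean. With 1 mean for each group, 24 arrays were fitted in limma 3.58.1 in R 4.3.3 (eBayes, no trend, Benjamini-Hochberg) and tested on simulated data. Named genes are the 15 largest rises and falls without overlap, up to 6 called members of each of 41 lists (genes may sit on several), members of the signalling, bone, blastema and actinodin lists, marker genes and the largest step differences, and which of these are described was settled after their values and alternatives were seen. The comparison and the lists were chosen with earlier results of these data known. Alternatives were other filters, eBayes settings, scalings, the replicate block, smaller fits, a 2-fold threshold, probe set means, and leaving out each array.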

Additional observations from a re-analysis of the deposited data

Results flagged for a closer look

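The genes below were picked out because the step from 24 to 48 h differed between the arms by the test of the difference itself. In arhgap32a the memory step minus the control step was 2.00, since the fall in control fins was the larger. In fosl1b it was 1.28, again with the larger fall in control fins. In a probe set of cry5 it was -2.22, a rise in control fins against a fall in memory fins. The control means of that probe set, 3.66 and 4.36, lay near the bottom of the scale. Its step difference was not called in a fit on only the groups compared. That fit called 1 higher step difference in place of 2, so arhgap32a and fosl1b did not both keep their calls either. Groups of 3 arrays are too small for a test of single outlying samples.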

How the results depend on the processing

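The counts for the control step, 1524 probe sets higher and 1609 lower, stayed within 1.5 times under other filters, eBayes settings, scalings, smaller fits and probe set means. A 2-fold threshold left 483 and 227 in control fins and 449 and 133 in memory fins. Leaving out 1 array gave 1154 to 1433 higher and 1037 to 1523 lower in control fins, with the lowest of both without replicate 1 of 48 h, and 1218 to 1305 and 989 to 1044 in memory fins. Centring on the median left 1440 higher and 1817 lower. Step differences were few and unstable: the 2 higher became 9 with no filter, 4 with the stricter filter, 4 without moderation and 1 with only the groups compared. The 2 lower became 6 with no filter, 1 with the stricter filter, 4 with a trend, 4 after repeated quantile scaling, 0 with only the groups compared, 5 without the 0 h arrays and 4 with probe set means. Leaving out 1 array gave 1 to 8 higher and 1 to 6 lower. The cause was not tested.

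Replicate numbers were checked as pairs: deviations of same-numbered 24 and 48 h arrays correlated at 0.272, 0.0771 and 0.179 in control fins and 0.235, 0.055 and 0.277 in memory fins, while pairs of different number gave -0.291 to 0.15 and -0.254 to 0.0541. Every same-numbered pair was above 0, and in memory fins each lay above every pair of different number. Not every one passed 0.1, and the labels name no shared fish or day. The number was therefore not treated as a pairing in the main fit, and these values do not settle if it is one. With the replicate block 1554 probe sets were higher and 1662 lower in control fins, 1502 and 1382 in memory fins, and 2 and 3 for the step difference. With it jdp2b, atf3, keap1a and klf17 stayed called (adjusted p = 0.0132, 0.0207, 0.0106 and 0.0229). Leaving out 1 array moved a count of calls by over 1.5 times in 25 of 41 lists. With 3 arrays a group, and signals near the bottom or the top of the scale, folds there are the least certain.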

Other observations

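Several members of the same gene families moved in opposite directions in control fins, a pattern picked after the values were seen and given here as values only. The chemokines cxcl12a and cxcl12b changed by 2.98 and -1.78, the activin subunits inhbb and inhbaa by 1.82 and -1.86, and the frizzled receptors fzd7a and fzd10 by 2.03 and -1.27. The hairy-related factors her6 and her9 changed by 0.89 and -1.45, the methyl-CpG binding proteins mbd3b and mbd2 by 1.53 and -1.37, and the keratins krt1-19e and krt93 by 2.02 and -1.80. In memory fins these 12 genes changed with the same signs, with her9 not called there (-0.58, adjusted p = 0.0803). The connective tissue growth factor genes ccn2a and ccn2b also parted in control fins, by 0.86 and -2.02. In memory fins ccn2a was at -0.06 and not called. Other relatives moved the same way in control fins, such as and1 with and2, fn1a with fn1b, and fzd7b (0.32) and fzd9b (1.59) with fzd7a.

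Of genes for enzymes of serotonin and melatonin synthesis, tph1b changed by -1.19 ± 0.15, ddc by -2.22 ± 0.18 and aanat2 by -1.38 ± 0.34 in control fins, picked after the values were seen, while aanat1 differed by -0.23 and was not called. Against the filter level the falls of ddc and aanat2 were at least 1.71 and 0.97. The call of aanat2 was lost in a fit on only the groups compared (adjusted p = 0.0641). In memory fins the first 3 had steps of -0.64, -2.33 and -0.75, the last not called (adjusted p = 0.11).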
